A study of Drosophila melanogaster with 8 samples.

Results

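The RasV12 line of Drosophila melanogaster was compared with the CL8 line over every fly probe set of the array, to find which genes are on in one line and off in the other and which functions those genes share. The comparison used 7 of the 8 arrays of the series, chosen by their titles. RasV12, a line obtained from embryo cells that expressed an oncogenic form of Ras, was profiled at passage 12 on 3 arrays. CL8 was profiled on 4 arrays, and L2, another line, on 1 array that is shown beside them without a test. All cells were harvested at 70% confluence from separate T-flasks, so the p-values describe the spread between flasks of one line. The labels give neither a tissue of origin for CL8 and L2, nor the driver of the Ras transgene, nor whether RasV12 is a single clone. Each line is 1 line, so an effect of Ras cannot be told apart from the other differences between RasV12 and CL8.

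Ras is a small GTPase that carries the signal of receptor tyrosine kinases to the MAP kinase cascade, and its V12 form stays in the active, GTP-bound state. Transcription factors set which receptors, adhesion molecules and secreted proteins a fly cell makes, and a cell line keeps part of the pattern of the cells from which it grew. Such genes are often fully on in one line and silent in another, whereas genes for ribosomes, mitochondria or splicing are used by every growing cell.

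RasV12 expressed genes of the matrix, of cell junctions and some of eye determination that CL8 did not express above background or expressed at a lower level. Of 22 Pax, eye and head genes, however, 7 were higher and 9 lower in RasV12. On a log2 scale perlecan (trol) averaged 13.18 ± 0.16 in RasV12 and 2.80 ± 0.12 in CL8, the gap junction gene Inx3 10.39 ± 0.12 in RasV12 and 2.87 ± 0.44 in CL8 and the eye determination gene ey 6.75 ± 0.62 in RasV12 and 1.29 ± 0.049 in CL8 (SD, n = 3 and 4 arrays). CL8 in turn expressed patterning and immune genes that were near background in RasV12. The homeobox gene unpg averaged 2.12 ± 0.087 in RasV12 and 12.25 ± 0.50 in CL8, the zinc finger gene Sp1 1.79 ± 0.12 in RasV12 and 12.15 ± 0.46 in CL8 and the antimicrobial peptide gene DptB 2.46 ± 0.040 in RasV12 and 10.48 ± 0.54 in CL8 (SD, n = 3 and 4 arrays). Whether such a difference reflects fewer cells of one type or less RNA per cell cannot be told apart in bulk samples.

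Each gene was read in 2 ways, by whether it was measured above background in each line and by how much the lines differed. The values are log2 expression values computed by the authors with GCRMA, and each of 10844 genes was read on its brightest probe set. The highest of 23 background control probe sets of an array, between 2.98 and 3.47 on the RasV12 and CL8 arrays, served as its limit. A gene was called switched on in RasV12 when it lay above that limit on all 3 RasV12 arrays and at or below it on all 4 CL8 arrays, and switched off when the reverse held. The fold of such a gene is only a bound and is written as "at least". The 75th percentile of the deposited values was 8.09 to 8.17 on the RasV12 arrays and 8.96 to 8.99 on the CL8 arrays, so all differences were also computed after quantile normalization over the 8 arrays (rescaled). The RasV12 values were also deposited with more decimals than those of CL8 and L2, so any step that was done separately for RasV12 cannot be told apart from the line. A gene is called higher or lower here when limma passed it in the same direction at an adjusted p under 0.05 on both sets of values.

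By that rule 1172 genes (10.8%) were higher in RasV12 than in CL8 and 2993 (27.6%) were lower. The deposited values alone gave 1177 higher (10.9%) and 4529 lower (41.8%), and the rescaled values 3781 (34.9%) and 3411 (31.5%). Over all 13966 probe sets, 11.3% were higher and 38.6% lower as deposited, 35.5% and 29.8% rescaled, and 11.3% and 25.6% on both. Over the 6951 genes above the controls in both lines, the median difference was -0.62 on the log2 scale as deposited and -0.04 rescaled, which is the shift against which single differences stand. Of these 6951 genes, 11.7% were higher and 34.6% lower, the closer reference for lists whose genes are mostly expressed in both lines. Calls also reached below the controls, where 174 genes were called higher and 207 lower while within the controls in both lines, and none of these is named as a result.

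**Figure D1:**
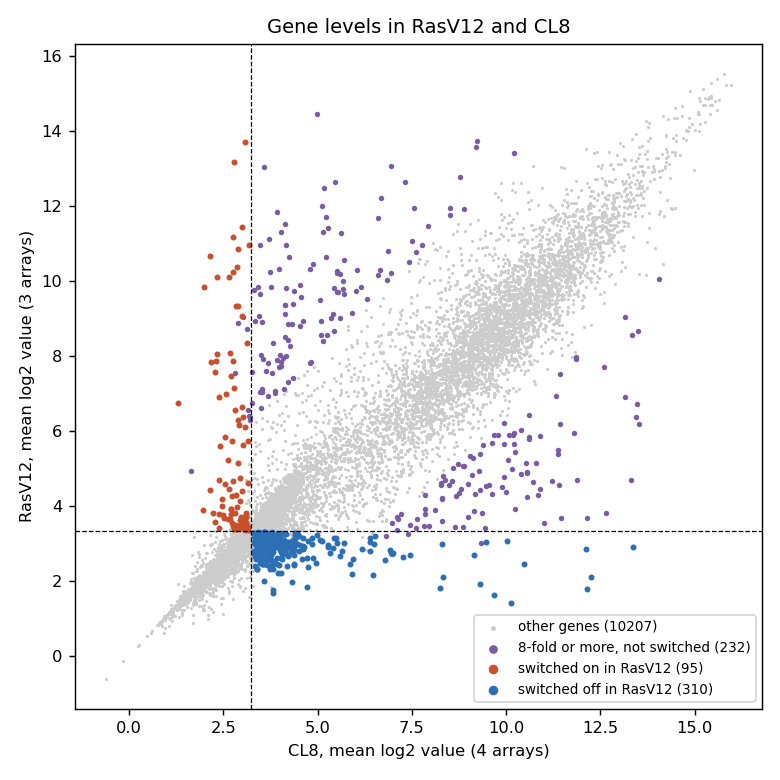
Mean log2 value of each of the 10844 genes in RasV12 (vertical axis, 3 arrays) against CL8 (horizontal axis, 4 arrays), as deposited. Coloured points mark the 95 genes switched on in RasV12, the 310 switched off, and the other genes that differed by 8-fold or more on both sets of values; the broken lines show the mean control limit of each line.

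Few genes were switched. In RasV12, 95 genes (0.876%) were switched on and 310 (2.86%) switched off, while 6951 (64.1%) were above the controls in both lines and 2795 (25.8%) in neither. Most switched genes lay close to the limit, with a median bound of 2.27-fold for those on and 1.34-fold for those off. A bound of 4-fold or more was reached by 39 genes that were on and 37 that were off, and of 16-fold or more by 23 and 15. Without CL8 arrays 1 and 2 the number switched on was 143, and with a limit 1 log2 unit higher for the line that is on, 41 genes were on and 54 off. On the L2 array 12 of the 39 and 21 of the 37 were above the control limit.

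A wider set was made, after the values had been seen, of genes called in both scalings with a difference of at least 8-fold in each. It held 161 higher genes (1.48%) and 137 lower genes (1.26%), and for all of them the arrays of RasV12 and CL8 did not overlap, as was so for 16.9% of all genes in the higher and 41.9% in the lower direction. The largest limma adjusted p in it was 0.006 as deposited and 0.0122 rescaled for the higher genes, and 0.0165 and 0.028 for the lower ones. At the edge of the set, Mlc2 at 3.001 and raptor at -3.008 on the smaller of the deposited and rescaled log2 differences were just inside, and Cpr51A at 2.9964 and mRpL50 at -2.995 just outside. Genes of adhesion, junctions and matrix (6 lists) were found in it most often among the higher genes, with 16 of 138 measured (11.6%) higher and 3 lower. Genes of metabolism and detoxification followed with 19 of 332 (5.72%) higher and 7 lower, and signalling genes with 9 of 180 (5.0%) higher and 3 lower. Immune genes had the opposite balance, with 2 of 95 higher and 4 (4.21%) lower. Chitin genes and serine proteases had 1 of 87 higher and 6 (6.9%) lower. The list of imaginal disc growth factors and chitin held 1 higher and 5 lower of 30, among them the neighbours Idgf1, Idgf2 and Idgf3. Serine proteases and serpins had 0 higher and 1 lower of 57. Housekeeping genes of growth (16 lists) were rarely in it, with 4 of 634 higher and 5 lower. These shares are descriptions, since the lists were drawn up with earlier results of these data known.

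**Figure D2:**
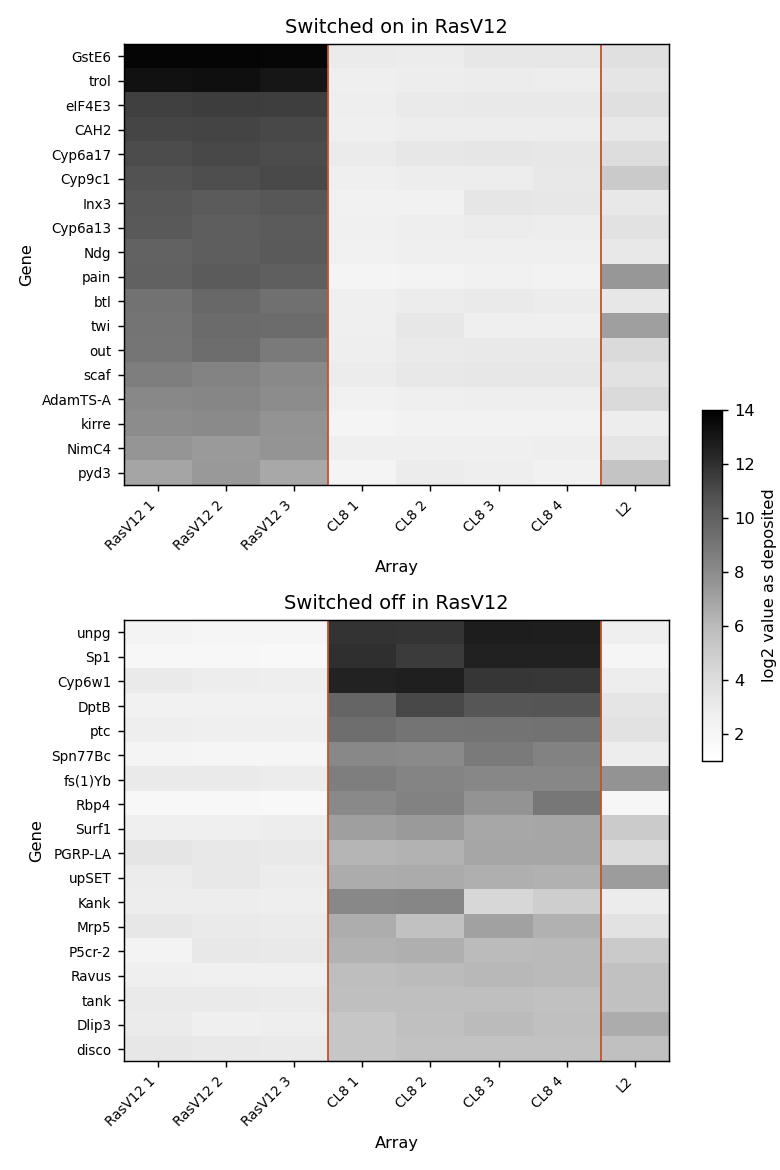
Deposited log2 value of named genes on every array, as grey cells, for the genes with the largest bounds switched on in RasV12 (upper block) and switched off (lower block). Columns run from the 3 RasV12 arrays over the 4 CL8 arrays to the L2 array, and the dark cells of each block stand in 1 line only, with a few genes such as twi, pain and fs(1)Yb also bright on L2.

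Beyond the detoxification, matrix and developmental genes described further on, the genes switched on in RasV12 encoded channels, transporters and regulators. The cap-binding translation factor gene eIF4E3 read 11.39, 11.48 and 11.43 in RasV12, against 2.73, 3.03, 3.11 and 3.09 in CL8. The transient receptor potential channel gene pain, a sensor of heat and mechanical force, read 9.94, 10.29 and 10.08 in RasV12, against 2.17, 2.31, 2.48 and 2.41 in CL8. Both were within the controls on every CL8 array and bright on every RasV12 array, which put eIF4E3 at least 296-fold and pain at least 117-fold higher in RasV12. CAH2, a carbonic anhydrase that interconverts carbon dioxide and bicarbonate, was at least 247-fold higher, and of all 13 carbonic anhydrase genes measured, CAH2 included, 2 were higher, 2 lower and 8 within the controls in both lines. The ion cotransporter gene NKCC was at least 12.8-fold higher, Sur, of the ABC transporter family of sulfonylurea receptors, at least 5.71-fold, and out, which encodes a transporter needed for germ cell survival, at least 58-fold. pyd3, an enzyme of pyrimidine breakdown, was at least 13.5-fold higher, tara, a transcriptional coregulator, at least 10.2-fold, and the Arp2/3 subunit gene Arpc3B at least 6.11-fold. Of these genes pain (7.44), pyd3 (5.46), Sur (4.25), out (4.13) and Arpc3B (5.69) were above the L2 limit of 4.04, while eIF4E3, CAH2, NKCC and tara were below it.

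Matrix genes divided between their parts. The proteoglycan, the linker and several regulators of the basement membrane were far higher in RasV12, and the laminin chains LanA, LanB1 and LanB2 and peroxidasin were lower. Of 27 genes of basement membrane and matrix, 14 were higher and 7 lower (51.9% and 25.9%, against 10.8% and 27.6% of all genes), with a median log2 difference of 0.43 (1.09 rescaled) where all genes had -0.14 (0.04 rescaled). Perlecan, encoded by trol, read 13.20, 13.32 and 13.01 in RasV12, against 2.63, 2.79, 2.89 and 2.87 in CL8. Nidogen, encoded by Ndg, which links laminin to collagen IV, read 9.89, 10.12 and 10.32 in RasV12, against 2.50, 2.70, 2.72 and 2.70 in CL8. Both were within the controls on all CL8 arrays, and the bounds were at least 993-fold and at least 118-fold. Mp, a collagen of the type XV and XVIII family, averaged 9.36 ± 0.29 in RasV12 and 4.14 ± 0.37 in CL8 (SD, n = 3 and 4), and the laminin alpha chain gene wb 9.38 ± 0.13 in RasV12 and 4.34 ± 0.30 in CL8. Timp, the tissue inhibitor of matrix metalloproteases, averaged 8.03 ± 0.094 in RasV12 and 3.50 ± 0.17 in CL8, and AdamTS-A, a metalloprotease gene of the ADAMTS family, was at least 29.1-fold higher. The other chains of laminin were lower, LanA at -1.59 (-0.97 rescaled), LanB1 at -1.36 (-0.64 rescaled) and LanB2 at -1.49 (-0.79 rescaled). Pxn, which encodes peroxidasin, a crosslinking enzyme of collagen IV, read 4.39, 4.58 and 4.42 in RasV12, against 11.75, 12.02, 9.86 and 10.01 in CL8. For Pxn CL8 arrays 3 and 4 lay below 1 and 2 and still above every RasV12 array. wb, Timp, LanB1 and LanB2 were singled out after their values had been seen.

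Proteases that act outside the cell differed in both directions. The tolloid-type protease genes tok and tld, which cut the inhibitors of BMP ligands and are neighbours in the genome, were both higher. tok averaged 14.46 ± 0.055 in RasV12 and 4.98 ± 0.40 in CL8 and tld 8.51 ± 0.19 in RasV12 and 4.14 ± 0.17 in CL8 (SD, n = 3 and 4). Of 35 genes of the M13, ADAM and tolloid families, a list added after the values had been seen, 7 were higher and 4 lower (20% and 11.4%, against 10.8% and 27.6% of all genes). The lower ones included Nepl19, of the neprilysin-like family, at -6.55 (-6.04 rescaled), and Meltrin, an ADAM protease, at -5.18 (-4.60 rescaled). Another probe set of Meltrin was called higher, so no direction holds for that gene as a whole. Both genes were named after their values had been seen.

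Among receptors of the cell surface and of axon guidance, more genes were higher than lower in RasV12. Of 51 adhesion genes 19 were higher and 8 lower (37.3% and 15.7%, against 10.8% and 27.6% of all genes), and of 30 guidance and neuropeptide genes 11 were higher and 7 lower (36.7% and 23.3%). N-cadherin, encoded by CadN and used for calcium-dependent adhesion of nerve and muscle cells, read 10.20, 10.64 and 10.16 in RasV12, against 3.84, 3.99, 4.02 and 4.01 in CL8. Dscam1, an immunoglobulin receptor with very many splice forms, read 11.29, 11.70 and 10.92 in RasV12, against 5.27, 5.0, 5.0 and 5.34 in CL8. The difference of CadN was 6.37 on log2 values (6.72 rescaled), with limma adjusted p = 2.2e-08 and 3.48e-07, and that of Dscam1 6.15 (6.56 rescaled), with no overlap between the lines, and on L2 CadN read 4.72 and Dscam1 10.34.

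Some adhesion partners or relatives differed in opposite directions. Nrt, the membrane receptor neurotactin, was higher by 7.17 (7.61 rescaled), and its secreted ligand Ama was lower, with 7.13, 6.71 and 6.88 in RasV12, against 13.11, 13.34, 13.20 and 13.01 in CL8. The myoblast receptor gene kirre was at least 25-fold higher, while its close relative rst differed by -3.0 (-2.76 rescaled) and lay within the controls on 2 of 3 RasV12 arrays. In the netrin system the ligand and both receptors were higher together. NetB, a netrin, averaged 8.85 ± 0.18 in RasV12 and 4.32 ± 0.11 in CL8, its attractive receptor gene fra 12.78 ± 0.13 in RasV12 and 8.78 ± 0.13 in CL8, and the repulsive receptor gene unc-5 12.35 ± 0.024 in RasV12 and 9.71 ± 0.55 in CL8 (SD, n = 3 and 4). drl, a receptor for a Wnt protein, was higher by 5.22 (5.59 rescaled) and Sema5c, a semaphorin, by 4.27 (4.84 rescaled). Lower in RasV12 were Mical, an enzyme that oxidises actin below plexins, at -4.27 (-3.62 rescaled), and comm, which sorts the guidance receptor Robo, at -2.43 (-1.88 rescaled). Its relative comm2, within the controls on 2 of 3 RasV12 arrays, read 2.86, 3.32 and 2.83 in RasV12, against 9.07, 9.23, 9.50 and 9.55 in CL8. fra, unc-5, rst and comm2 were singled out after their values had been seen.

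More septate junction genes were higher than lower in RasV12, and so were the bright innexins. Innexins form the gap junctions of insects, and 3 of the 7 measured were higher by at least 8-fold. Inx3 read 10.47, 10.25 and 10.46 in RasV12, against 2.51, 2.48, 3.30 and 3.19 in CL8. ogre, which encodes innexin 1, read 11.88, 12.11 and 11.86 in RasV12, against 7.07, 7.45, 8.04 and 7.64 in CL8. Inx2 read 9.81, 9.84 and 9.85 in RasV12, against 5.38, 5.98, 5.90 and 7.38 in CL8, so that all 3 RasV12 arrays exceeded all 4 CL8 arrays for each of these channel subunits. Inx3 was at least 144-fold higher, ogre by 4.40 (5.14 rescaled) and Inx2 by 3.67 (4.23 rescaled). The 2 innexins called lower had values near the controls. Of 23 septate junction genes 10 were higher and 3 lower (43.5% and 13.04%, against 10.8% and 27.6% of all genes). Among the higher were Nrg, the adhesion molecule neuroglian, at 1.52 (2.27 rescaled), Nrx-IV at 1.39 (2.20 rescaled) and the claudin gene pck at 1.23 (2.05 rescaled). bou, a Ly6-type protein needed for these junctions, was the largest exception, at 4.33 ± 0.25 in RasV12 and 9.17 ± 0.35 in CL8. Of 18 genes of integrins and their linkers 3 were higher and 3 lower (16.7% each), the lower share below that of all genes. The subunit genes mew and if were higher by 1.67 (2.14 rescaled) and 1.45 (2.24 rescaled), and the linker gene Ilk was lower at -1.88 (-1.08 rescaled). Another of the lower linker genes had probe sets called in opposite directions, at 0.64 and -2.05. Nrx-IV and pck were named after their values had been seen.

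In several receptor pathways some members were higher and others lower. The FGF receptor genes btl, used by tracheal cells, and htl, used by mesoderm, were higher, btl at least 69.8-fold and htl by 6.15 (6.57 rescaled). bib, a Notch pathway membrane protein, was higher by 3.47 (3.91 rescaled), and fng, the glycosyltransferase that tunes Notch, by 1.92 (2.72 rescaled), and O-fut1, which adds the fucose that fng extends, was lower at -2.04 (-1.27 rescaled). The Hedgehog receptor gene ptc was at least 56.6-fold lower. cos, the kinesin-like scaffold of that pathway, was lower at -2.34 (-1.88 rescaled), and the Hedgehog co-receptor gene boi was higher by 2.16 (2.63 rescaled). Of 26 genes of BMP and activin signalling 10 were higher and 4 lower (38.5% and 15.4%, against 10.8% and 27.6% of all genes). The higher ones included the transducers Smox, at 2.65 (3.40 rescaled), and Mad, at 1.95 (2.72 rescaled). The lower ones included Dad, at -1.58 (-0.94 rescaled), and Smurf, at -1.64 (-0.89 rescaled), both inhibitors of BMP signalling. The lower count also held the BMP receptor gene tkv, at -8.46 on its brightest probe set. Another probe set of tkv was called higher, at 3.68, so no direction is given for it. raptor, the partner of the TOR kinase in its first complex, was lower at -3.39 (-3.01 rescaled), and the growth control genes wts and Tgi were lower at -1.96 (-1.64 rescaled) and -2.20 (-1.80 rescaled). Mad was named after its values had been seen.

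Transcription factors differed between the lines in both directions. The eye genes ey, toy, eya and so were higher in RasV12, and of the patterning genes of appendages and the body axis more were lower than higher. The Pax6 gene ey read 6.06, 6.88 and 7.29 in RasV12, against 1.21, 1.30, 1.31 and 1.32 in CL8. Its relative toy averaged 9.75 ± 0.23 in RasV12 and 4.36 ± 0.25 in CL8 (SD, n = 3 and 4). ey lay within the controls on every CL8 array and toy about 1 log2 unit above them, and both were well above them on all RasV12 arrays, with ey at least 11.5-fold higher and toy by 5.38 (5.75 rescaled). Their partners in that network were higher too, eya with 7.72 ± 0.22 in RasV12 and 4.90 ± 0.48 in CL8 and so with 7.52 ± 0.075 in RasV12 and 5.63 ± 0.10 in CL8 (SD, n = 3 and 4). tsh, which can also direct eye fate, averaged 7.55 ± 0.20 in RasV12 and 2.81 ± 0.63 in CL8, with CL8 arrays on both sides of the control limit, and noc, a zinc finger gene, 12.48 ± 0.074 in RasV12 and 5.16 ± 0.35 in CL8. Of 22 Pax, eye and head genes, a list added after the values had been seen, 7 were higher and 9 lower (31.8% and 40.9%, against 10.8% and 27.6% of all genes). On L2 ey, toy and eya read 1.48, 4.49 and 5.03, close to CL8, while so at 7.02 and noc at 11.22 were closer to RasV12. The genes so, tsh and noc were named after their values had been seen.

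Further factors higher in RasV12 came from other families. Sox102F, a SoxD factor, read 11.75, 11.74 and 12.02 in RasV12, against 3.63, 3.99, 4.03 and 4.03 in CL8. The homeobox gene NK7.1 averaged 10.19 ± 0.14 in RasV12 and 5.59 ± 0.54 in CL8, btn, another homeobox gene, 11.72 ± 0.032 in RasV12 and 5.21 ± 0.68 in CL8, and pnr, a GATA factor, 6.37 ± 0.51 in RasV12 and 3.20 ± 0.22 in CL8 (SD, n = 3 and 4). chinmo, a BTB zinc finger gene that marks early temporal identity, was higher by 3.55 (4.27 rescaled), and twi, the mesoderm determinant, at least 69.4-fold. EcR, the ecdysone receptor gene, was higher by 2.51 (2.91 rescaled) and its heterodimer partner usp lower at -1.78 (-0.94 rescaled). btn and pnr were named after their values had been seen.

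On the other side, the Sp-family genes Sp1 and btd, neighbours that act in leg and head formation, were both lower. Sp1 read 1.79, 1.91 and 1.67 in RasV12, against 12.01, 11.55, 12.50 and 12.52 in CL8. btd read 3.68, 3.58 and 3.54 in RasV12, against 9.0, 7.72, 8.22 and 8.22 in CL8. Sp1 lay within the controls in RasV12 and was at least 449-fold lower, while btd was just above them and differed by -4.69 (-4.23 rescaled). The homeobox gene unpg read 2.22, 2.09 and 2.06 in RasV12, against 11.85, 11.79, 12.72 and 12.65 in CL8, and the Hox gene Antp read 4.98, 4.56 and 4.46 in RasV12, against 11.51, 11.18, 11.14 and 11.06 in CL8. unpg was therefore at least 483-fold lower and Antp lower at -6.56 (-6.03 rescaled). The other axial genes that were off had small bounds, such as cad at least 4.24-fold and ftz at least 2.6-fold. Of 30 axial genes 2 were higher and 15 lower (6.7% and 50%, against 10.8% and 27.6% of all genes), of 36 wing and limb disc genes 4 and 19 (11.1% and 52.8%), and of 65 homeobox genes 9 and 26 (13.8% and 40%). Within these lower counts, 1, 3 and 4 genes lay within the controls in both lines. The GATA factor gene srp and its cofactor gene ush, which act in blood cells, were lower at -2.16 (-1.38 rescaled) and -4.27 (-3.60 rescaled). Other blood cell genes were higher, such as Hml at 0.83 (0.89 rescaled) and the scavenger receptor gene Sr-CI at 1.39 (2.05 rescaled). Hml was dim, at 4.30 ± 0.44 in RasV12 and just above the controls in CL8, at 3.47 ± 0.13 (SD, n = 3 and 4). Of 32 hemocyte genes 10 were higher and 9 lower (31.2% and 28.1%, against 10.8% and 27.6% of all genes). Lower too was Stat92E, the transcription factor of JAK signalling, at -1.91 (-1.18 rescaled).

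**Figure D3:**
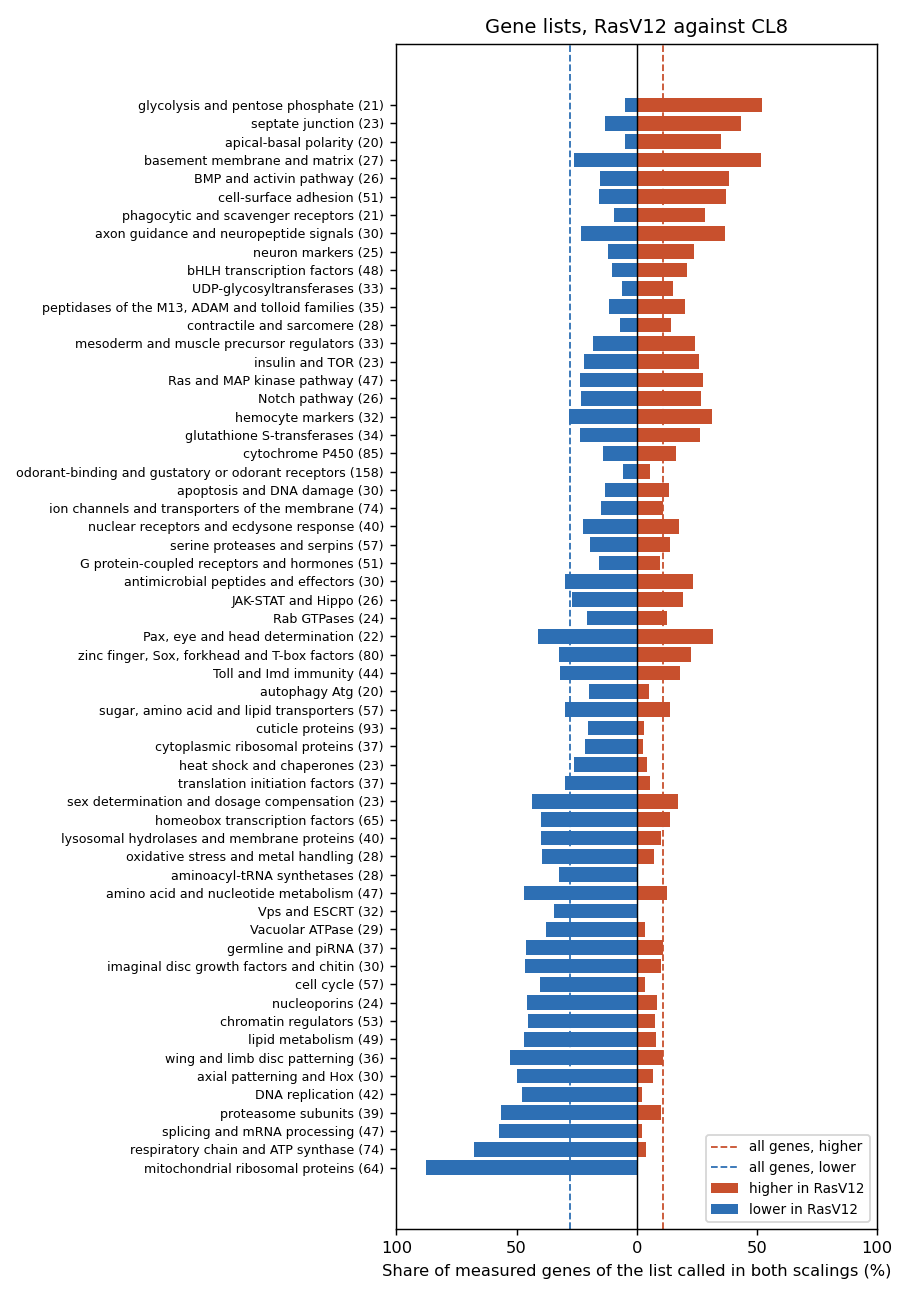
Share of the measured genes of each list called higher (right) and lower (left) in RasV12 than in CL8 on both sets of values, in percent, for lists with at least 20 measured genes. The vertical lines give the same shares over all 10844 genes, 10.8% higher and 27.6% lower, and the numbers give the genes measured. The glycolysis list, which also holds Argk1, Glyp and Men, and the basement membrane list reach farthest right, and mitochondrial ribosomal proteins farthest left.

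Enzymes that process foreign and internal chemicals differed in both directions. Of 85 cytochrome P450 genes 14 were higher and 12 lower (16.5% and 14.1%, against 10.8% and 27.6% of all genes), with 8 and 1 of them by at least 8-fold in both scalings and 35 within the controls in both lines. Cyp9c1 read 10.71, 10.88 and 11.02 in RasV12, against 2.70, 2.79, 2.87 and 3.15 in CL8. Cyp6a13 read 10.35, 10.09 and 10.27 in RasV12, against 2.56, 2.74, 2.91 and 2.84 in CL8. In contrast Cyp6w1 read 2.99, 2.81 and 2.77 in RasV12, against 12.44, 12.59, 11.75 and 11.70 in CL8. The first 2 were thus on in RasV12 alone, at least 200-fold and at least 129-fold higher, and Cyp6w1 in CL8 alone, at least 441-fold lower in RasV12. Cyp28d1 and Cyp6a9 were higher by 6.49 (6.85 rescaled) and 6.43 (6.80 rescaled), and Cyp12e1 and Cyp6v1 lower at -3.32 (-2.63 rescaled) and -3.22 (-2.65 rescaled). Glutathione S-transferases divided in the same way, with 9 higher and 8 lower of 34 (26.5% and 23.5%), from GstE6, at least 1430-fold higher, to GstE1, lower at -4.17 (-3.53 rescaled), and GstS1, lower at -2.50 (-1.83 rescaled). Among the UDP-glycosyltransferases, which make compounds soluble by adding a sugar, Ugt302C1 was higher by 5.53 (6.15 rescaled) and Ugt37D1 was lower, with 5.08, 4.70 and 4.13 in RasV12, against 11.78, 11.59, 9.55 and 9.98 in CL8.

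Central metabolism differed at single steps. Of 21 genes listed for glycolysis and the pentose phosphate pathway 11 were higher and 1 lower (52.4% and 4.8%, against 10.8% and 27.6% of all genes), and the lower one lay within the controls in both lines. The list also held genes outside these pathways, among them Argk1, Glyp and Men, so its share is not one of glycolytic enzymes alone. Argk1, the arginine kinase that buffers ATP, read 10.67, 10.57 and 10.65 in RasV12, against 4.94, 5.06, 5.08 and 5.85 in CL8. Glycogen phosphorylase, encoded by Glyp, averaged 10.52 ± 0.069 in RasV12 and 7.42 ± 0.32 in CL8 and glycogen synthase, encoded by Glys, 10.54 ± 0.027 in RasV12 and 7.91 ± 0.22 in CL8 (SD, n = 3 and 4), so the enzymes of glycogen breakdown and synthesis were both higher. The malic enzyme gene Men was higher by 2.76 (3.52 rescaled). Proline genes differed at both ends, with slgA, the proline dehydrogenase that starts its breakdown, higher by 4.21 (4.59 rescaled), and the pyrroline-5-carboxylate reductase genes P5cr and P5cr-2, which make proline, lower, P5cr at -2.32 (-1.81 rescaled) and P5cr-2 at least 7.17-fold. Gs1, a glutamine synthetase, read 5.35, 4.72 and 4.68 in RasV12, against 11.12, 11.03, 10.14 and 9.96 in CL8, and Cth, a lyase of cysteine synthesis, was lower at -3.36 (-2.57 rescaled). In pyrimidine breakdown su(r), the enzyme of the first step, was lower at -4.78 (-4.14 rescaled), opposite to pyd3. In purine synthesis Adsl and Prat were lower at -2.58 (-1.76 rescaled) and -2.32 (-1.48 rescaled), and Gart was higher by 0.93 (1.48 rescaled). Glys, P5cr, Adsl and Prat were named after their values had been seen.

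Of 49 lipid metabolism genes 4 were higher and 23 lower (8.2% and 46.9%, against 10.8% and 27.6% of all genes). mdy, the acyltransferase that completes triglycerides, read 4.86, 4.39 and 4.40 in RasV12, against 9.54, 9.72, 9.48 and 9.44 in CL8. The lipid droplet protein gene Lsd-2 and the lipase gene bmm, which act for and against fat storage, were both lower, at -2.50 (-1.72 rescaled) and -2.08 (-1.34 rescaled). Sphingolipid enzymes were lower at several steps, the serine palmitoyltransferase gene lace at -2.69 (-2.03 rescaled), the ceramide synthase gene schlank at -2.67 (-1.85 rescaled) and the ceramidase gene CDase at -4.84 (-4.13 rescaled). whd, the carnitine transferase that admits fatty acids to mitochondria, was lower at -2.85 (-2.01 rescaled). Against this trend the lipoprotein receptor gene LpR2 read 10.07, 10.06 and 9.87 in RasV12, against 7.72, 5.83, 5.12 and 4.03 in CL8, a difference of 4.32 (4.86 rescaled) that was 5.43 without CL8 arrays 1 and 2 and 3.22 without 3 and 4. Membrane carriers differed in both directions. path, an amino acid transporter linked to TOR, was higher by 6.12 (6.74 rescaled), and MFS3, of the major facilitator family, by 6.89 (7.33 rescaled). The amino acid transporter genes JhI-21 and mnd were lower at -2.06 (-1.32 rescaled) and -1.79 (-0.96 rescaled). lace, schlank and CDase were named after their values had been seen.

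Of 40 lysosomal hydrolase and membrane protein genes, a list added after the values had been seen, 4 were higher and 16 lower (10% and 40%, against 10.8% and 27.6% of all genes), 7 of the lower ones by at least 8-fold in both scalings. Of these 40 genes 34 were above the controls in both lines, and over all such genes 11.7% were higher and 34.6% lower. The lower share of the list was thus near that of such genes. GILT3, a thiol reductase of the lysosome, read 6.16, 6.19 and 6.20 in RasV12, against 13.55, 13.87, 13.34 and 13.39 in CL8. Its neighbour GILT2 read 5.18, 4.60 and 4.99 in RasV12, against 9.04, 9.32, 9.35 and 9.42 in CL8, and GILT1 differed in the other direction by 0.93 (1.70 rescaled). The cystine exporter gene Ctns was lower at -5.63 (-5.10 rescaled) and the cathepsin genes CtsL1, CtsK1 and CtsB, bright in both lines, at -2.45 (-1.78 rescaled), -2.10 (-1.43 rescaled) and -1.97 (-1.30 rescaled). For the proton pump of the lysosome, the V-ATPase list had 1 higher and 11 lower of 29 (3.4% and 37.9%) and a median difference of -0.49 (-0.09 rescaled), against -0.68 (-0.25 rescaled) over the lysosomal list. No test set the 2 lists against each other. The genes of this paragraph were named after their values had been seen.

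Immune genes differed in both directions. Of 30 genes of antimicrobial peptides and effectors 7 were higher and 9 lower (23.3% and 30%, against 10.8% and 27.6% of all genes), of which 4 and 2 lay within the controls in both lines. The diptericin gene DptB, an antimicrobial peptide of the Imd pathway, read 2.50, 2.44 and 2.43 in RasV12, against 9.77, 11.10, 10.51 and 10.55 in CL8. In the opposite direction the attacin gene AttD was at least 1.4-fold higher and the prophenoloxidase gene PPO2 higher by 0.24 (0.29 rescaled). The call of PPO2 was lost without any 1 of the arrays other than RasV12 array 3, with limma adjusted p = 0.0564 to 0.115 on the deposited values. Of the peptidoglycan and glucan recognition families, 3 named genes were lower, with PGRP-LA at least 9.19-fold lower, PGRP-LF at -3.11 (-2.47 rescaled) and GNBP2 at -3.43 (-2.99 rescaled). Inside the cell the kinase genes pll and IKKbeta differed by -2.58 (-1.81 rescaled) and -1.85 (-1.37 rescaled) and the NF-kappaB gene Rel by -1.84 (-1.04 rescaled). Of 44 genes of Toll and Imd signalling 8 were higher and 14 lower (18.2% and 31.8%), so the lower share was near that of all genes, the higher ones including the receptor gene Tl at 1.98 (2.46 rescaled). The serpin genes Spn27A and Spn77Bc, of a family of protease inhibitors, were lower, Spn27A at -3.51 (-2.87 rescaled) and Spn77Bc at least 32-fold. Engulfment receptors did not share a direction. NimC4 was at least 19.1-fold higher and drpr higher by 2.28 (3.05 rescaled), both receptors for dying cells, while eater, a receptor for bacteria, was lower at -5.87 (-5.24 rescaled), and ced-6, the adaptor inside the cell for drpr, was lower at -3.90 (-3.10 rescaled). pll, IKKbeta, Rel and ced-6 were named after their values had been seen.

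The imaginal disc growth factors Idgf1, Idgf2, Idgf3 and Idgf6, secreted relatives of chitinases, were lower in RasV12. Idgf1 read 4.68, 4.55 and 4.31 in RasV12, against 9.41, 9.87, 10.19 and 10.08 in CL8. Idgf2 read 5.73, 5.18 and 5.57 in RasV12, against 11.51, 11.66, 11.21 and 11.13 in CL8. Idgf3 read 6.56, 6.51 and 7.07 in RasV12, against 13.61, 13.64, 13.44 and 13.23 in CL8, and for these 3 neighbouring genes every RasV12 array lay more than 4 log2 units below every CL8 array. Idgf6, which lies elsewhere, was lower at -4.0 (-3.30 rescaled), and Idgf4 stayed near the controls in both lines, at 2.55 ± 0.068 in RasV12 and 3.22 ± 0.071 in CL8 (SD, n = 3 and 4). Of 30 genes of this family and of chitin metabolism 3 were higher and 14 lower (10% and 46.7%, against 10.8% and 27.6% of all genes). Chitinases themselves parted, with Cht2 higher, at 10.96 ± 0.10 in RasV12 and 4.16 ± 0.90 in CL8, and Cht10 lower, at 4.61 ± 0.25 in RasV12 and 8.28 ± 0.14 in CL8. Idgf4, Idgf6, Cht2 and Cht10 were named after their values had been seen.

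**Figure D4:**
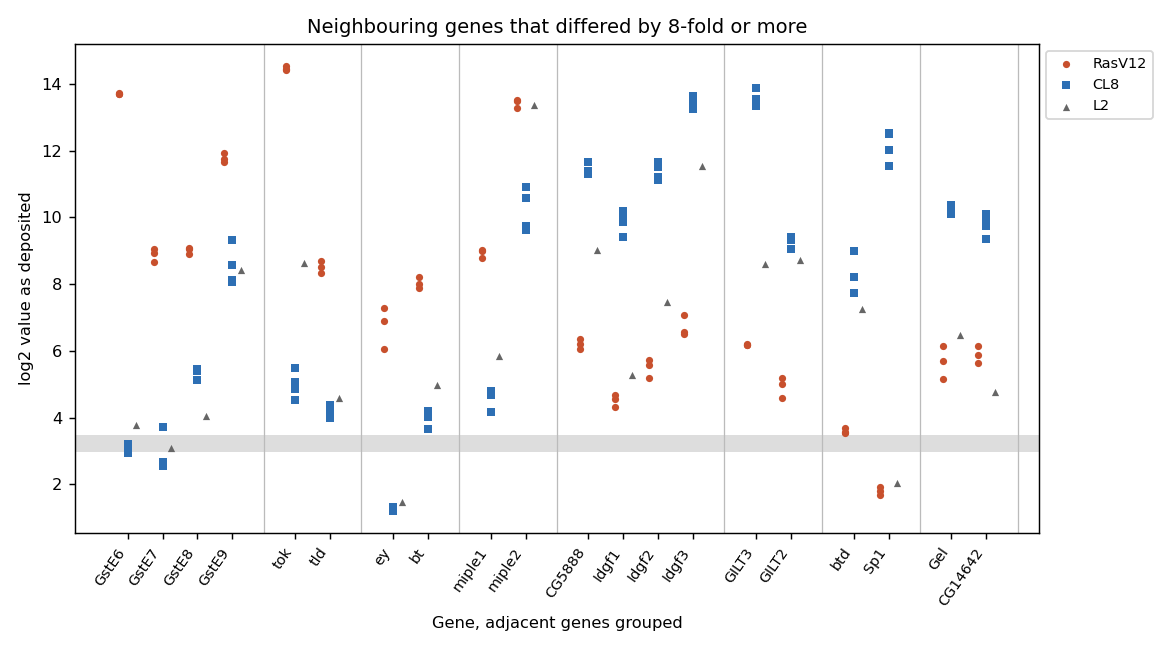
Deposited log2 values on every array of genes that lie next to each other and differed by 8-fold or more in the same direction, RasV12 to the left of CL8 and CL8 to the left of L2 for each gene. The horizontal band marks the range of the control limits of the RasV12 and CL8 arrays, and the points of RasV12 and CL8 do not overlap for any gene shown.

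Some of these differences covered stretches of neighbouring genes. In the order of genes that RefSeq gives for assembly Release 6 plus ISO1 MT, 6 runs of adjacent measured genes with 14 genes in all were higher by at least 8-fold, 8.70% of the higher set, and 9 runs with 20 genes were lower, 14.6% of the lower set. The longest higher run was GstE6, GstE7, GstE8 and GstE9, in which GstE6 was at least 1430-fold higher and GstE7, within the controls on 3 of 4 CL8 arrays, read 8.66, 8.93 and 9.04 in RasV12, against 2.55, 3.71, 2.67 and 2.66 in CL8. GstE8 and GstE9 were above the controls in both lines and differed by 3.67 (4.14 rescaled) and 3.27 (4.05 rescaled). Its genes are close relatives of one another, so signal of one could reach the probes of the next, which was not tested. The same holds for other runs of related genes, such as Idgf1 to Idgf3, Cyp6a17 with Cyp6a23, and GILT2 with GILT3. The share of genes that runs would hold in a scattered set of the same size was not computed. The longest lower run was CG5888, Idgf1, Idgf2 and Idgf3, with -5.23, -5.38, -5.89 and -6.77. The other higher runs were Cyp6a17 with Cyp6a23, tok with tld, ey with the muscle kinase gene bt, path with CG32037, and the midkine-like growth factor genes miple1 and miple2, at 4.32 (4.69 rescaled) and 3.21 (3.97 rescaled). Other lower runs included btd with Sp1, GILT2 with GILT3, and Gel, which encodes the actin-severing protein gelsolin, with CG14642, at -4.54 (-3.91 rescaled) and -3.89 (-3.23 rescaled). GstE7, CG5888, CG32037, miple1, miple2, Gel and CG14642 were named after their values had been seen.

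Genes of respiration, splicing and protein sorting differed mostly by smaller steps. Respiratory chain and ATP synthase genes had 3 higher and 50 lower of 74 (4.1% and 67.6%, against 10.8% and 27.6% of all genes), with a median of -1.22 (-0.55 rescaled). Sdhaf3, an assembly factor gene of succinate dehydrogenase, was lower at -3.76 (-3.12 rescaled), and Surf1, an assembly factor gene of complex IV, at least 12.7-fold lower. Mitochondrial ribosomal proteins had the largest lower share of all lists, with 0 higher and 56 lower of 64 (0% and 87.5%). Their median was -1.83 (-1.0 rescaled). Proteasome subunits had 4 higher and 22 lower of 39 (10.3% and 56.4%). DNA replication genes had 1 and 20 of 42 (2.4% and 47.6%), and nucleoporins 2 and 11 of 24 (8.3% and 45.8%). Splicing and mRNA processing genes had 1 higher and 27 lower of 47 (2.1% and 57.4%). SF2, a splicing activator, was the one higher, by 2.46 (3.22 rescaled), and the 3' end cleavage factor genes CstF50 and CstF64 were lower at -3.41 (-2.67 rescaled) and -3.45 (-2.95 rescaled). Vps and ESCRT genes had 0 higher and 11 lower of 32 (0% and 34.4%), and cytoplasmic ribosomal proteins 1 and 8 of 37 (2.7% and 21.6%), with medians of -0.52 as deposited and 0.05 rescaled. The lower share of the Vps and ESCRT genes was near that of all genes, and that of the ribosomal proteins was below it. Most genes of these lists were above the controls in both lines, and over all such genes 11.7% were higher and 34.6% lower.

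Of 53 chromatin regulator genes 4 were higher and 24 lower (7.5% and 45.3%, against 10.8% and 27.6% of all genes). Of them 50 were above the controls in both lines, and over all such genes 11.7% were higher and 34.6% lower. Polycomb group genes, which keep developmental genes silent, were lower at Pc, at least 3.84-fold, and at Sce, with -2.47 (-1.97 rescaled), both in the complex that binds the histone mark, and at E(z), with -1.40 (-0.56 rescaled), in the complex that makes it. Their antagonist trx read 10.48, 10.84 and 10.34 in RasV12, against 4.93, 4.11, 7.15 and 6.67 in CL8, higher in RasV12 by 4.84 (5.36 rescaled). upSET, a SET domain protein gene, was at least 8.96-fold lower, and the insulator protein gene CTCF lower at -2.38 (-1.55 rescaled). The male dosage compensation genes msl-2, msl-3 and mof were lower at -3.23 (-2.62 rescaled), -3.79 (-3.20 rescaled) and -1.82 (-1.0 rescaled), and msl-1 and mle differed in the same direction by -1.24 (-0.45 rescaled) and -1.72 (-1.04 rescaled). Sxl, the female switch gene that blocks msl-2, read 9.73, 10.58 and 10.16 in RasV12, against 7.12, 5.31, 7.01 and 6.93 in CL8. Germline genes gave 4 higher and 17 lower of 37 (10.8% and 45.9%), the higher ones including orb, a translational regulator of the oocyte, with 9.55, 9.79 and 9.65 in RasV12, against 3.11, 3.66, 3.57 and 3.58 in CL8, and tud, of germ granules, by 3.43 (4.22 rescaled). fs(1)Yb, of the piRNA pathway in somatic ovary cells, was at least 31.4-fold lower, its relative BoYb lower at -2.90 (-2.07 rescaled), and Rbp4, an RNA-binding protein gene, at least 30.1-fold lower. E(z), CTCF, msl-1, mof and mle were named after their values had been seen.

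**Figure D5:**
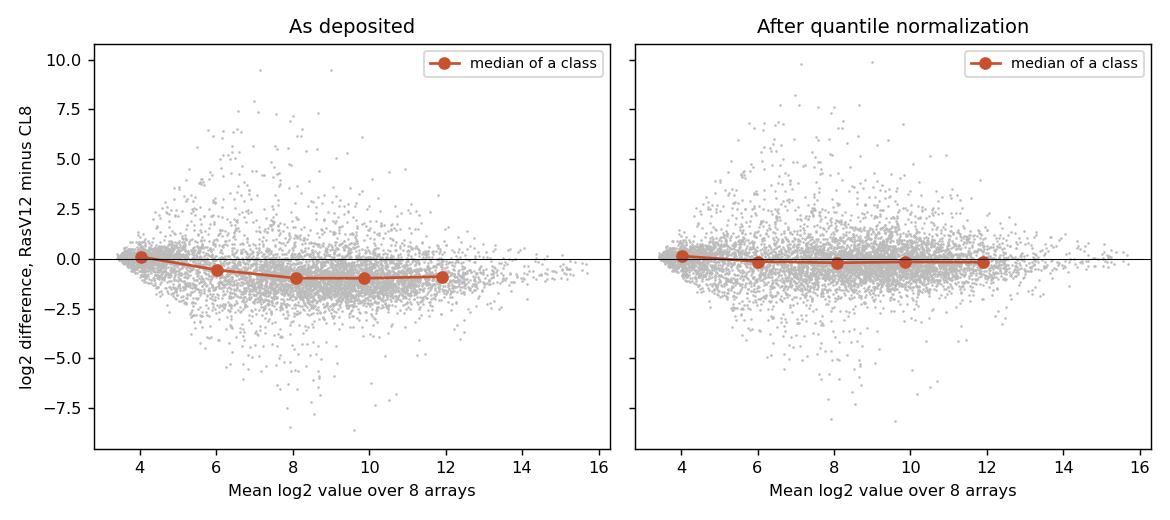
Log2 difference, RasV12 minus CL8, of the 6951 genes above the controls in both lines against their mean log2 value over all arrays, for the deposited values (left) and after quantile normalization (right). The line joins the medians of 5 classes of mean value, which lie between -0.98 and 0.10 as deposited and between -0.20 and 0.14 rescaled.

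Scaling moved the differences of bright genes more than those of dim ones. As deposited, the median difference was 0.10 over the 1609 genes with a mean of up to 5 and -0.98 over the 1712 genes with a mean between 9 and 11, and the rescaled medians were 0.14 and -0.16. Of the 4529 genes called lower on the deposited values, 2993 were called lower on both. The share of higher calls among all called genes was 20.6% on the deposited and 52.6% on the rescaled values.

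Genes with several probe sets gave a check inside the array. Of the 161 genes higher by at least 8-fold, 37 had another probe set, which was called in the same direction for 27 and in the opposite one for 3. Of the 137 lower genes, 20 had another, called the same way for 7 and the opposite way for 4. For some named genes the other probe set was called in neither direction, among them Antp, Argk1, bt, GILT2, EcR, PGRP-LA, cad and IKKbeta. Their differences rest on the brightest probe set alone. Over all genes, 50 had probe sets called in both directions. The largest such conflict was tkv, a BMP receptor gene, whose probe sets differed by 3.68 and -8.46, followed by isoQC at 5.85 and -2.48. No direction is given for these genes.

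Markers of several cell types were above the controls in both lines. All 8 measured hemocyte markers were above the controls in both lines, 3 of them higher and 4 lower, with a summed linear level of 1265 to 1569 in RasV12 and 9557 to 13314 in CL8. Hml was only just above the controls in CL8. Of 6 mesoderm and muscle markers 4 were above them in RasV12 and 3 in CL8, with a summed level of 3208 to 3778 in RasV12 and of 80.1 to 116 in CL8. The RasV12 sum came mostly from htl, at a log2 value of 11.42 ± 0.13 in RasV12 and 5.27 ± 0.22 in CL8. Of 28 contractile and sarcomere genes 4 were higher and 2 lower (14.3% and 7.1%, against 10.8% and 27.6% of all genes). The markers nau and up lay within the controls in both lines. Of 6 neuron markers 3 were above them in each line, at 218 to 272 in RasV12 and 152 to 227 in CL8. In RasV12 and CL8, 4 and 5 of 5 glial, 6 and 6 of 6 epithelial, 2 and 1 of 4 fat body, 1 and 1 of 4 tracheal, 4 and 4 of 5 imaginal disc and 4 and 4 of 5 germline markers were above them. The part of such cells in the differences was not tested.

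The L2 array, measured once, was nearer to CL8 for 117 of the 161 higher genes and nearer to RasV12 for 44. For the 137 lower genes it was nearer to RasV12 for 80 and to CL8 for 57. Among the genes where L2 resembled RasV12 were Tig, an integrin ligand gene, at 10.43 against 11.32 in RasV12 and 4.04 in CL8, and the spectrin gene kst at 10.60 against 10.33 in RasV12 and 4.79 in CL8. Annotation limits what can be named, since 39 of the higher and 51 of the lower genes carry only a CG or CR number, and 17 more probe sets higher and 8 lower by at least 8-fold are paired with no gene in the names used. The gene of the transgene, Ras85D, has no probe set in those names and was not checked. kst was named after its values had been seen.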

How the data were processed

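RNA of 3 RasV12, 4 CL8 and 1 L2 flasks was hybridised to DrosGenome 1 arrays. The deposited values are log2 expression values that the authors computed with GCRMA in Bioconductor, per the series' design text; the version, and whether all arrays passed through 1 run, are stated in no source used here. The number of arrays limits the precision. All 13966 probe sets other than controls were fitted in 1 model of the 8 arrays with limma 3.58.1 (R 4.3.3), with Benjamini-Hochberg adjustment over all of them and a threshold of 0.05, on the deposited values and after quantile normalization. In simulated data for this comparison over 13966 probe sets the fit recovered 82% of 100 changes of 1 log2 unit and 95% of 100 changes of 2 log2 units.

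Of these probe sets, 12443 were paired with 1 gene by the platform annotation, 327 with several and 1196 with none, and 12394 matched RefSeq (assembly Release 6 plus ISO1 MT), which updated the symbols. Where a gene had several probe sets, the one that was brightest on average across the 8 arrays was used. The 65 gene lists, the 3 added lists and the comparison itself were chosen with earlier results of these data known. Genes were named by rule: in each list up to 5 switched each way and up to 3 above the controls that differed most in each direction, the 30 genes with the largest bounds switched each way across all lists and beyond, and 8 with probe sets in conflict. Other names are marked in the text as chosen after their values had been seen. Same-numbered RasV12 and CL8 arrays did not deviate together (r = -0.24, -0.098 and -0.088), so the numbers were not used as pairs. Alternatives were other scalings, a replicate block, another variance prior, filters, limits and left-out arrays. Sequences were not used here.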

Additional observations from a re-analysis of the deposited data

Results flagged for a closer look

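Among the 4 CL8 arrays of the 191 genes named in the text, 22 had 1 array far from the other 3 by Dixon's test at the 95% level, which chance flags in about 1 in 20 groups. The array that stood apart was low for AttD at 2.83 (next 3.18), CadN at 3.84 (next 3.99), Cyp6a23 at 3.19 (next 3.50), Idgf4 at 3.12 (next 3.25), Ndg at 2.5 (next 2.70), Sox102F at 3.63 (next 3.99), Sur at 2.97 (next 3.20), Sxl at 5.31 (next 6.93), bou at 8.65 (next 9.30), ey at 1.21 (next 1.30), ftz at 4.39 (next 4.80), kirre at 2.19 (next 2.35), orb at 3.11 (next 3.57), pnr at 2.87 (next 3.28), su(r) at 10.43 (next 10.66), tara at 2.65 (next 2.87) and wb at 3.89 (next 4.45). It was high for Argk1 at 5.85 (next 5.08), GstE7 at 3.71 (next 2.67), Pc at 5.57 (next 5.22), msl-3 at 9.30 (next 8.73) and twi at 3.20 (next 2.71). All values are deposited log2 values. The low array was CL8 array 1 for AttD, CadN, Cyp6a23, Idgf4, Ndg, Sox102F, Sur, bou, ey, ftz, kirre and orb. CL8 array 1 also had the lowest control limit, 2.98 against 3.22 to 3.41 on the other CL8 arrays. These flags share an array and are not independent of one another. Sxl differed most from its nearest array, and every CL8 array of Sxl was below every RasV12 array.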

How the results depend on the processing

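Scaling moved the counts of calls most. The 1580 probe sets called higher on the deposited values became 4953 after quantile normalization over the 8 arrays, 4951 over the 7 arrays of RasV12 and CL8, and 4861 with each array centred on its median. With each array left out in turn, 1240 to 1508 probe sets were called higher and 4914 to 5652 lower as deposited. With the replicate number as a block, 1316 were higher and 5018 lower. Among the 191 named genes the block changed, on the deposited values, only the call of PPO2 (0.26, limma adjusted p = 0.286). The other 190 genes kept their direction and their side of the threshold under quantile normalization over the 8 arrays. On the deposited values they also did so under the block, without any single RasV12 or CL8 array and without either pair of CL8 arrays. For single named genes these settings were not read on the rescaled values, so their calls on both sets of values were not rechecked. PPO2 kept its direction, and its call held under quantile normalization and without RasV12 array 3 but not under the others, with 0.18 to 0.30. The 95 genes switched on became 41 and the 310 switched off 54 with the limit 1 log2 unit higher, which asks more of the same values. Without CL8 arrays 1 and 2, 143 were on, against 105 without arrays 3 and 4. Leaving out array 1 alone gave 121, and each of the other CL8 arrays 96 to 102. CL8 array 1 had the lowest control limit, 2.98. More higher than lower genes were found in 23 of 68 lists, against 15 on the deposited values alone and 42 on the rescaled ones. The genes at least 8-fold apart numbered 154 to 176 higher and 133 to 141 lower under the alternatives run. Probe sets near the controls give no order between lines.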
